A study of Bos taurus with 42 samples.

Results

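*RBM3* (ENSBTAG00000025848) is 1 of 22664 genes in the count table of this study, and it was followed here over 42 RNA-Seq libraries from the cerebrum, liver and hind limb muscle of 14 bovine fetuses. It was selected on its muscle values, which were higher in the restricted group, so its diet difference in muscle is given as a description without a test. The fetuses were collected at day 50 of gestation from beef heifers bred to a common sire. The dams of the control group (CON, *n* = 7, 6 males and 1 female) were fed to 100% of their requirements, and the dams of the restricted group (RES, *n* = 7, 5 males and 2 females) received 60% of the control delivery from breeding onwards. Each fetus gave 1 library per tissue, and the fetus numbers used here are those in the sample titles. Values are read counts per gene, turned into CPM (counts scaled to a fixed library size) with trimmed mean of M-values (TMM) factors and put on the log2 scale with a prior count of 1. Factors were computed within a tissue for diet and sex, and over all 42 libraries for tissue comparisons.

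RBM3 is a small RNA-binding protein with an RNA recognition motif followed by a glycine-rich tail. Its transcript and protein rise when cells are cooled mildly, while most other synthesis slows, and the protein binds many mRNAs and supports their translation. In the brain it is known for protecting synapses during cooling, and in muscle it has been studied in relation to atrophy. The gene lies on chromosome X in the RefSeq annotation of assembly ARS-UCD2.0, which is not the build used for the counts, so no positions are given. CIRBP, the other well-known cold-inducible RNA-binding protein, could not be paired with a row of the table and is not analysed here.

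*RBM3* was well covered. Its count lay between 426 and 1806 reads per library, in libraries that held between 4145093 and 12741299 counts in all. The lowest count came from the liver of RES fetus 1, where 67.7% of the counts fell on 12 named mitochondrial genes. The highest count came from the muscle of RES fetus 25. The gene therefore passed the filter on low counts in every tissue, among 15151 genes kept for cerebrum, 13527 for liver and 14947 for muscle.

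The tissue labels held against their defining markers. The summed CPM of 8 cerebrum markers averaged 727 in cerebrum libraries, where liver libraries had 0.615 and muscle libraries 24.6. The 6 liver markers with an identifier summed to 50718 CPM in the liver, 822 in the cerebrum (783 of them from *TTR*) and 19.0 in muscle. The 8 muscle markers summed to 6319 CPM in muscle, 31.3 in the cerebrum and 10.7 in the liver. Single libraries stood apart by other measures. Mitochondrial shares ran from 4.04% to 44.9% of counts in CON livers and from 4.34% to 67.7% in RES livers, and in the cerebrum of RES fetus 1 the share was 14.7%. One RES cerebrum library reached 6094 CPM of the genes listed for liver, the group's most abundant of which was *TTR*, a gene also expressed by the choroid plexus, and 1 CON muscle library reached 4109 CPM of neuron markers.

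In muscle, *RBM3* was higher in RES than in CON by 0.45 on the log2 scale of CPM, a 1.36-fold difference. The CON libraries ran from 6.94 in fetus 54 through a median of 7.50 to 7.68 in fetus 23. The RES libraries ran from 7.64 in fetus 55 through a median of 7.90 to 8.02 in fetus 25. The CON mean was 7.44 ± 0.24 and the RES mean 7.88 ± 0.13 (SD, *n* = 7 each). The groups overlapped by a single library on either side, since 6 of 7 RES libraries lay above the highest CON library and 6 of 7 CON libraries lay below the lowest RES library. Both libraries at the edge of RES, fetus 55 at 7.64 and fetus 70 at 7.80, came from females. Without fetus 54 the difference was 0.37, or 1.29-fold, and among males alone it was 0.52. In the fit across all genes with sex as a covariate the estimate was 0.45. These muscle values chose the gene and are not evidence for it. For scale, edgeR's quasi-likelihood test called 0% of 14947 genes between the diets in muscle at an adjusted *p* under 0.05, while 9.91% had an unadjusted *p* under 0.05 and DESeq2 called 14 genes.

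**Figure D1:**
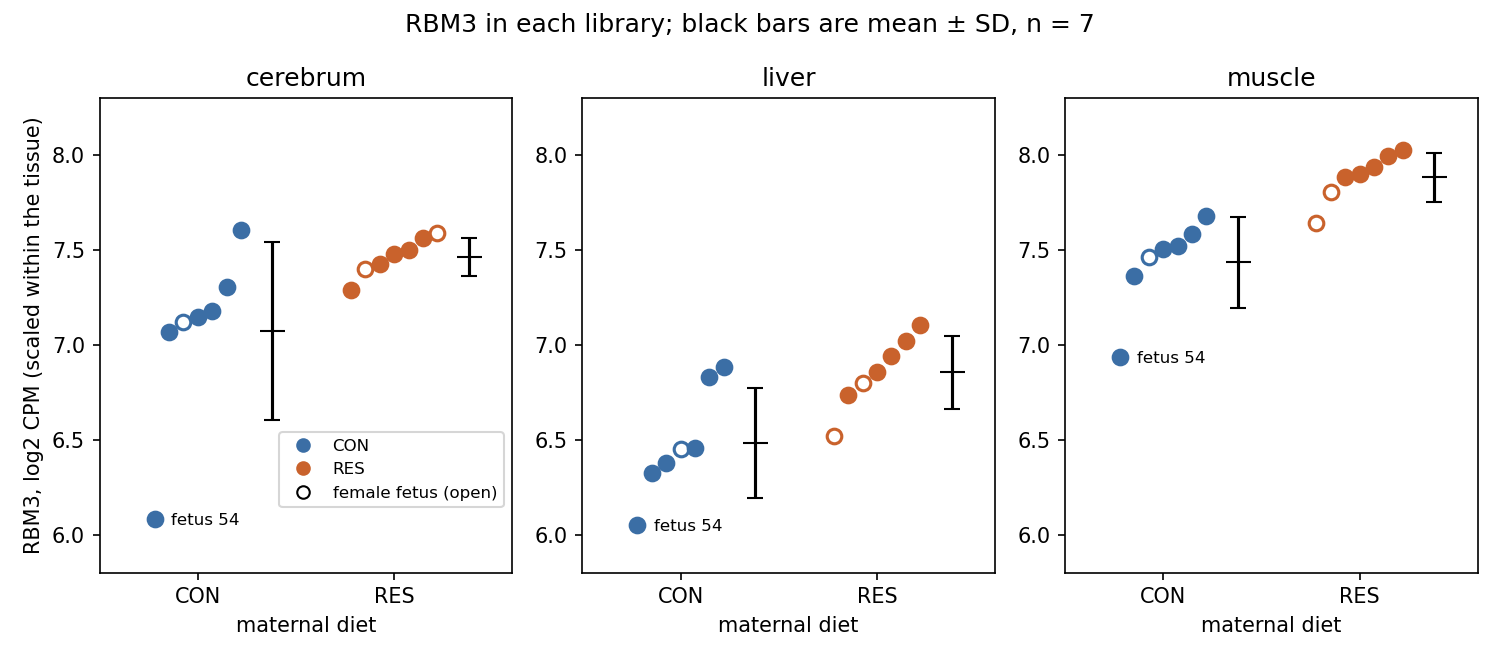
*RBM3* in each of the 42 libraries, as log2 CPM scaled within the tissue (vertical axis), by maternal diet (horizontal axis) and tissue (panels). Points are libraries, ordered by value within a group, open points are female fetuses, and black bars are the mean ± SD of 7 libraries. CON fetus 54 is the lowest point of each panel, and the muscle values are those on which the gene was selected.

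In the liver, *RBM3* had a higher estimate in RES, with an unadjusted *p* under 0.05 that did not pass the adjustment over all genes. The CON livers ran from 6.05 in fetus 54 through a median of 6.45 to 6.88 in fetus 23. The RES livers ran from 6.52 in fetus 70 through a median of 6.85 to 7.11 in fetus 33. Among the CON livers, fetuses 2 and 23 stood at 6.83 and 6.88 and the other 5 at 6.46 or lower. Fetuses 2 and 23 also had the largest mitochondrial shares of the CON livers, 44.9% and 16.4% of counts, against 4.04% to 8.56% in the other 5. The median share was 5.84% in CON livers against 12.6% in RES livers. The RES liver with the lowest *RBM3* value, fetus 70, had the smallest RES share at 4.34%. From the highest value down, the other RES livers stood at 7.11 with a share of 30.5% (fetus 33), 7.02 with 9.61% (52) and 6.94 with 35.6% (6). Below them were 6.85 with 12.5% (25), 6.80 with 12.6% (55) and 6.74 with 67.7% (1). The part of these shares in the *RBM3* values was not tested beyond the fit that leaves the mitochondrial genes out of the totals. The groups overlapped, with 3 of 7 RES libraries above every CON library and 5 of 7 CON libraries below every RES library. The fitted difference was 0.38 ± 0.14 (SE) with an unadjusted *p* of 0.0176 and an adjusted *p* of 0.184 by edgeR's quasi-likelihood test. An exact two-sided permutation test of the group means over all 3432 splits, which tested this gene alone, gave a difference of 0.37 and *p* = 0.0175. Unadjusted *p*-values of this size were common in the liver, where 24.1% of 13527 genes were under 0.05, 0% were called after adjustment, and DESeq2 called 78 genes. The estimate of *RBM3* was above that of 78.9% of the genes tested in the liver.

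The liver difference moved with the scaling. On library totals without TMM factors it was 0.08 ± 0.28 (SE, unadjusted *p* = 0.782 by edgeR), and 0.28 ± 0.16 (SE, unadjusted *p* = 0.101) when the mitochondrial genes were also left out of the totals. In plain CPM of the library total the CON livers averaged 103 ± 17.4 and the RES livers 111 ± 41.6 (SD, *n* = 7 each). The liver of RES fetus 1 had the lowest CPM of all livers, 33.4, and the largest mitochondrial share, yet on the TMM scale it stood at 6.74, within the range of both diets. In muscle, where mitochondrial shares were 2.35% to 4.03%, the difference without TMM factors was 0.44.

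In the cerebrum the fit across all genes made no call, and the overlap of the diets depended on the scaling. On the TMM scale the CON libraries ran from 6.08 in fetus 54 through a median of 7.14 to 7.60 in fetus 23, and the RES libraries from 7.29 in fetus 52 through a median of 7.48 to 7.59 in fetus 70. On this scale CON held both the lowest and the highest cerebrum library, and its SD of 0.47 compared with 0.10 in RES. The library of fetus 23 was the highest only after TMM scaling. In plain CPM of the library total it stood at 103, above only fetus 54 at 72.7, and its 10 most abundant genes took 13.4% of counts. In plain CPM the CON cerebra averaged 134 ± 32.8 and the RES cerebra 183 ± 15.7 (SD, *n* = 7 each), and 6 of 7 RES libraries, at 176 to 202, lay above the highest CON library at 158. The fitted difference of 0.33 ± 0.19 (SE) had an unadjusted *p* of 0.10 and an adjusted *p* of 0.999 by edgeR, in a comparison that called 0% of 15151 genes, with 2.55% under an unadjusted 0.05 and none called by DESeq2. The exact two-sided permutation test of the group means gave 0.39 and *p* = 0.0152. Without fetus 54 the fitted difference was 0.22 and the difference of means 0.23, a 1.17-fold difference, against 1.31-fold with it. On library totals without TMM factors the fitted difference was 0.43 ± 0.19 (SE, unadjusted *p* = 0.0352, adjusted *p* = 1.0, edgeR), and 0.45 ± 0.19 (unadjusted *p* = 0.0260, adjusted *p* = 1.0) with the mitochondrial genes also left out of the totals.

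On the TMM scale with all fetuses, the diet difference thus had the same direction in the 3 tissues, from 0.33 to 0.45 in log2. The muscle value in this range is the one that chose the gene. On library totals the liver estimate was 0.08 ± 0.28 (SE), and without fetus 54 the cerebrum estimate was 0.22. These tissues came from the same fetuses and are not separate evidence. Whether the difference varied between tissues was not tested. Because the gene was selected on the muscle of these fetuses, the *p*-values given for liver and cerebrum may carry that selection.

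The spread of *RBM3* among fetuses of 1 diet was small for a gene of this table. For cerebrum, liver and muscle its SD within diets was 0.34, 0.25 and 0.19, against medians over all genes of 0.53, 0.49 and 0.26. Only 17.9%, 11.3% and 32.5% of genes, respectively, had a smaller SD. No adjustment for the level of a gene was made in this comparison.

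On the TMM scale CON fetus 54, a male, held the lowest value in all 3 tissues. Its cerebrum stood at 6.08, its liver at 6.05 and its muscle at 6.94. In plain CPM of the library total fetus 54 was lowest in the cerebrum and muscle. There the lowest liver was RES fetus 1 at 33.4, against 77.2 in fetus 54. With TMM factors the cerebrum of fetus 54 lay 0.99 below the next library, CON fetus 69, while the other 13 libraries spanned 0.53. In plain CPM it stood at 72.7 and the next library, CON fetus 23, at 103, with the highest cerebrum at 202. Among 12251 genes kept in the 3 tissues, fetus 54 was, after TMM scaling, the lowest of the 14 fetuses in every tissue for 7 genes, or 0.0571%. Of these *RBM3* was the only gene with a symbol. For comparison, 302 genes (2.47%) had any 1 fetus lowest in all tissues, and RES fetus 1 accounted for 257 of these. The libraries of fetus 54 held 6090050, 7891945 and 5757345 counts in the cerebrum, liver and muscle, with mitochondrial shares of 2.89%, 8.56% and 2.68%, all inside the range of the other fetuses. The remaining cold shock genes were not lowest there throughout: *YBX1* stood at 9.49 in its cerebrum, where CON ran from 8.80 to 11.10, and *RBMX2* at 6.71 was the highest CON value in muscle.

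At the other end no fetus was highest throughout. Counting ranks from the lowest of 14 fetuses, CON fetus 23 had, on the TMM scale, rank 14 for cerebrum, 11 for liver and 8 for muscle. RES fetus 33 had rank 14 in the liver, 10 in muscle and 11 in the cerebrum. RES fetus 25 had rank 14 in muscle, and CON fetus 46 had rank 5 in each tissue.

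Across fetuses, *RBM3* levels were correlated between the tissues. Pearson's *r* over the 14 fetuses was 0.748 between cerebrum and liver, 0.857 between cerebrum and muscle and 0.840 between liver and muscle, with Spearman's rho of 0.657, 0.732 and 0.798. These pooled values include the diet difference of the same fetuses, on which the gene was selected in muscle, and are given without a test. Values centred within each diet were tested, with Benjamini-Hochberg adjustment over the 3 pairs. The permutations shuffled the centred values over all 14 fetuses and not within a diet, so their *p*-values are approximate. These gave *r* = 0.631 for cerebrum and liver (adjusted permutation *p* = 0.0116), 0.841 for cerebrum and muscle (0.00369) and 0.717 for liver and muscle (0.00450). The rho values of the centred data were 0.257, 0.477 and 0.697, with adjusted permutation *p* of 0.374, 0.130 and 0.0217.

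**Figure D2:**
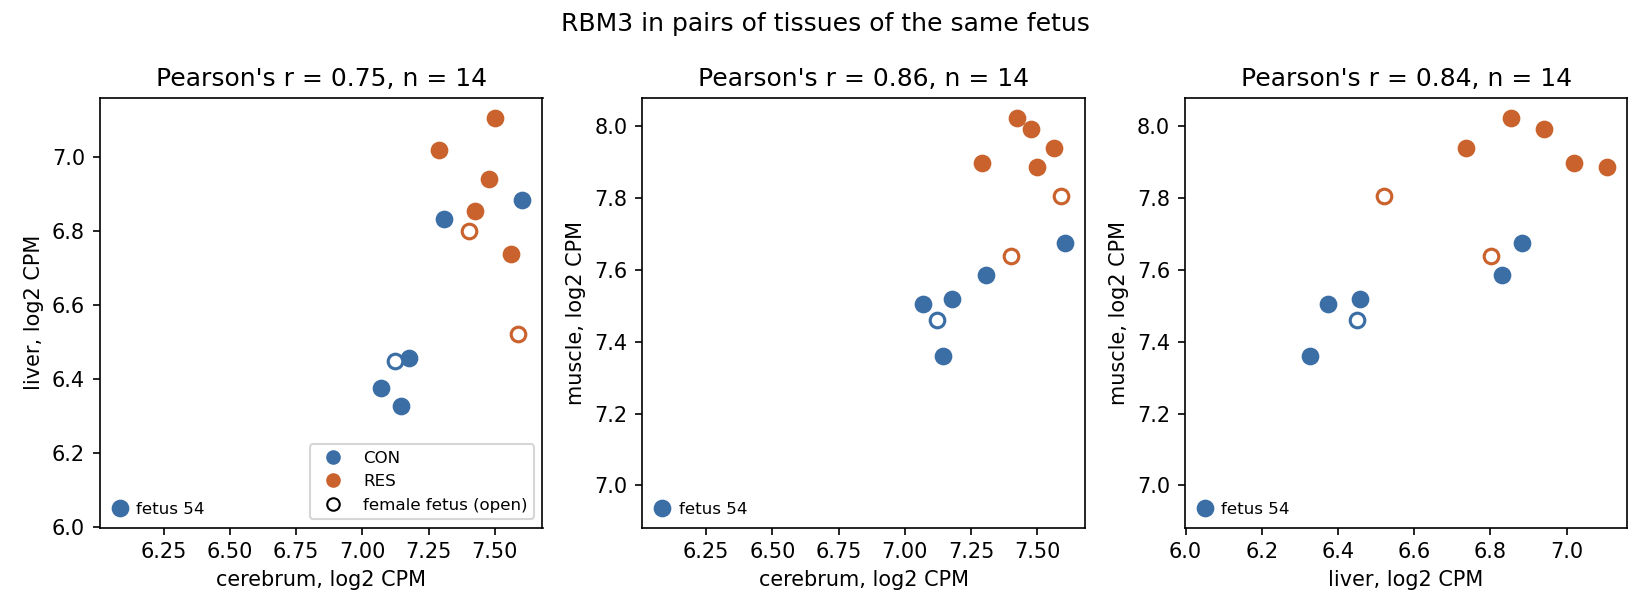
*RBM3* in pairs of tissues of the same fetus, both axes as log2 CPM scaled within the tissue, with 1 point per fetus (*n* = 14) and open points for females. Fetus 54 lies at the lower left of each panel, far from the rest in the cerebrum, and the RES fetuses lie mostly at the upper right.

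These relations rested in part on fetus 54. Leaving out the 2 fetuses farthest from the median of the first tissue gave a pooled *r* of 0.534 for cerebrum and liver (without 54 and 69), 0.688 for cerebrum and muscle (without the same fetuses) and 0.676 for liver and muscle (without 54 and 73). Without fetus 54 alone the pooled *r* was 0.618, 0.716 and 0.746. Without the 2 farthest fetuses, 54 and 23 in each pair, the centred *r* fell to -0.014, 0.271 and 0.429 (permutation *p* = 0.966, 0.385 and 0.162). These values kept the diet means of all 14 fetuses, so they were not centred again. Without fetus 54 alone, and centred again, *r* was 0.388, 0.448 and 0.560, with adjusted permutation *p* of 0.191, 0.188 and 0.139. Within diets Pearson's *r* therefore did not pass the threshold in any pair without fetus 54, while Spearman's rho for liver and muscle was 0.659 (adjusted permutation *p* = 0.0493).

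The scaling mattered for the pairs with liver. In CPM without TMM factors *r* was 0.233 for cerebrum and liver, 0.809 for cerebrum and muscle and 0.106 for liver and muscle. With the mitochondrial genes taken out of the totals it was 0.533, 0.829 and 0.646. Among the 11 males, on the TMM scale, it was 0.813, 0.866 and 0.879.

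Most genes showed little relation between tissues of the same fetus. The median *r* over all genes was 0.111 for cerebrum and liver (12441 genes), 0.0922 for cerebrum and muscle (14031 genes) and 0.177 for liver and muscle (12606 genes). An *r* at least as high as the pooled *r* of *RBM3* was found for 0.450%, 0.128% and 0.325% of genes, respectively. That *r* includes the diet difference of the fetuses on whose muscle the gene was selected, so these shares are not evidence. With values centred within diets these shares were 2.17%, 0.192% and 2.32%, and without fetus 54 they became 18.5%, 11.4% and 12.3%. Genes of 1 library share its depth and composition, so these shares are descriptions.

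**Figure D3:**
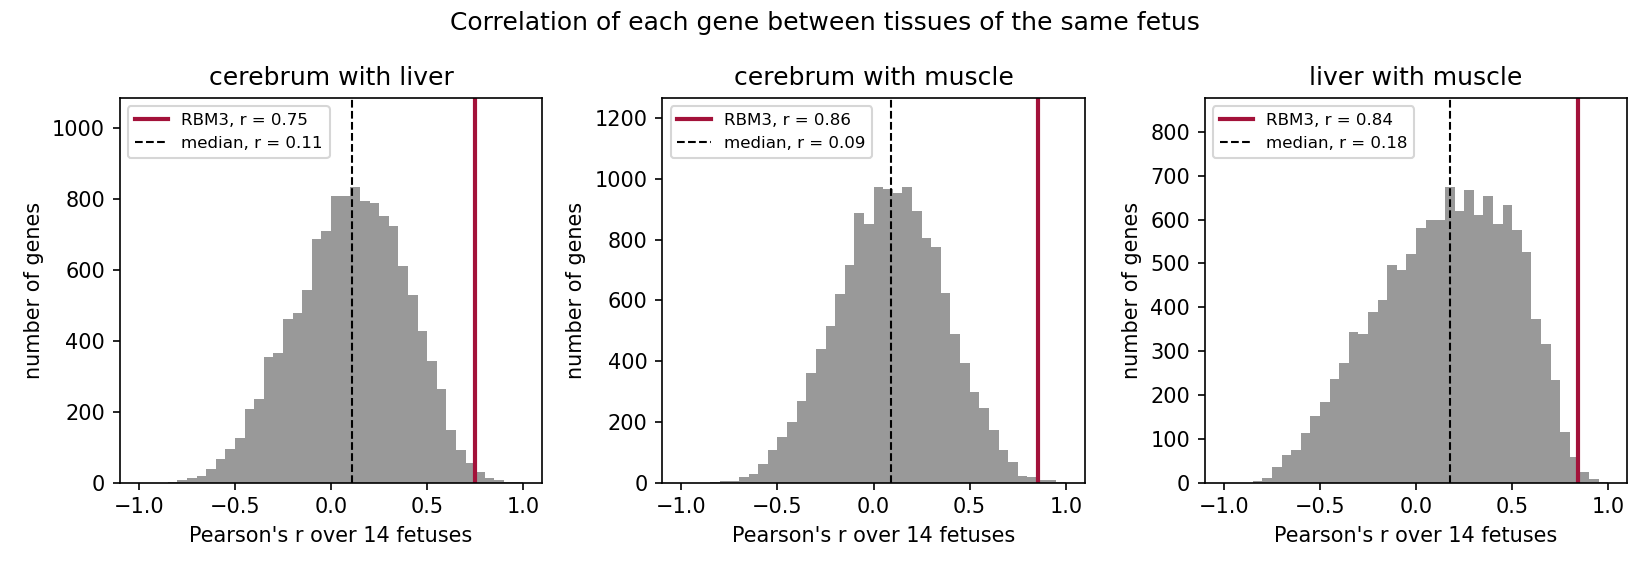
Number of genes (vertical axis) by Pearson's *r* between tissues of the same fetus over 14 fetuses (horizontal axis, bins of 0.05), for 3 pairs of tissues. The dashed line is the median gene and the red line is *RBM3*, which lies in the right tail at 0.75, 0.86 and 0.84. These values are pooled over the diets and include the diet difference of the fetuses on whose muscle the gene was selected.

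Between tissues, *RBM3* was lowest in the cerebrum on the TMM scale. The means over 14 fetuses were 6.90 ± 0.37 (SD) in the cerebrum, 7.29 ± 0.31 in muscle and 7.41 ± 0.32 in the liver. The cerebrum libraries ran from 5.76 through a median of 7.01 to 7.20, the muscle libraries from 6.56 through 7.28 to 7.65 and the liver libraries from 6.81 through 7.51 to 7.90, so the ranges overlapped. The cerebrum was lower than the liver by 0.50 ± 0.10 (SE, adjusted *p* = 1.51e-05, edgeR) and lower than muscle by 0.37 ± 0.10 (SE, adjusted *p* = 0.00111). Liver and muscle, neighbours in this order, differed by 0.13 ± 0.10 (SE), with an adjusted *p* of 0.222. Such calls were the rule between tissues, where 83.6%, 68.1% and 82% of 15972 genes were called for cerebrum against liver, cerebrum against muscle and liver against muscle.

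The place of the liver in this order depended on the scaling. In CPM of the library total, *RBM3* averaged 158 ± 35.5 for cerebrum, 107 ± 31.0 for liver and 205 ± 36.9 for muscle (SD, *n* = 14 each), so the liver was the lowest. The fit without TMM factors put the cerebrum above the liver by 0.55 and the liver below muscle by 0.93, the reverse of the TMM result, and kept the cerebrum below muscle by 0.38. The median of all genes shifted in the same way, from 0.17 to 1.2 for cerebrum against liver and from -0.21 to -1.23 for liver against muscle. Relative to that median, which takes out a shift shared by all genes, *RBM3* stood at -0.67 for cerebrum against liver, -0.43 for cerebrum against muscle and 0.34 for liver against muscle on the TMM scale. With a stricter filter on low counts these values were -0.47, -0.40 and 0.13.

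**Figure D4:**
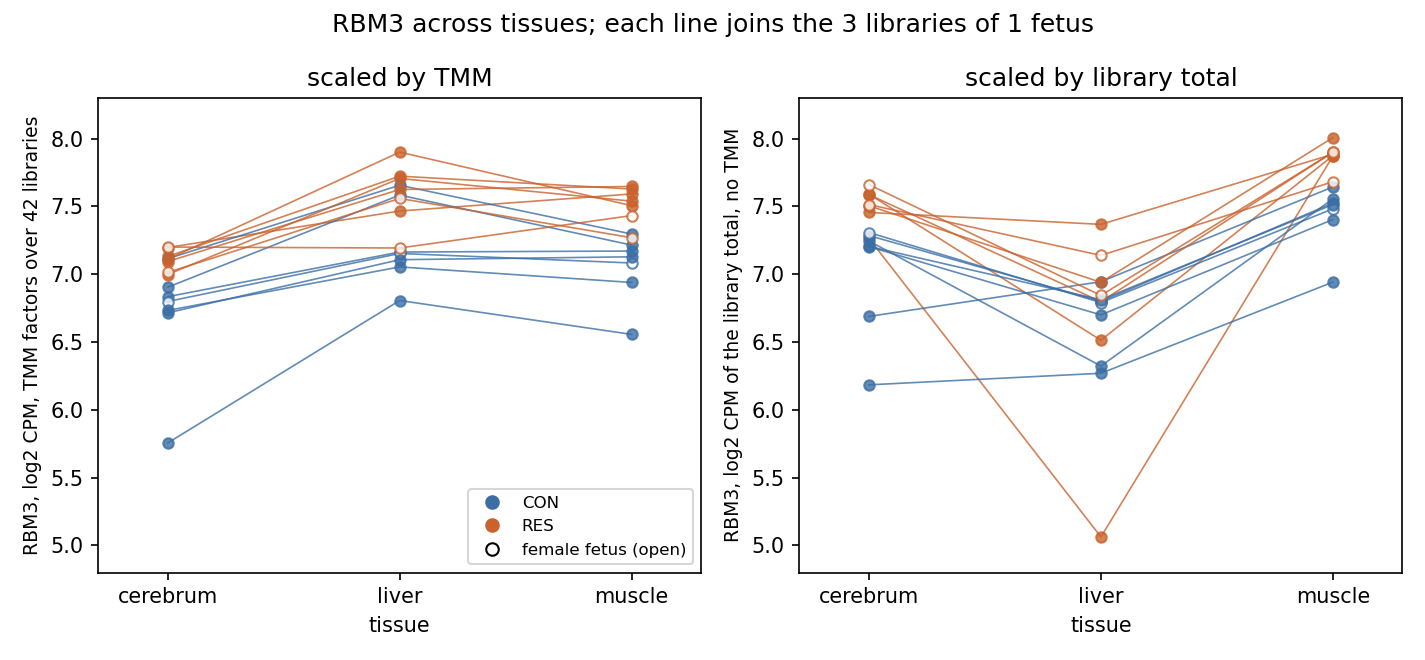
*RBM3* in the 3 tissues of each fetus, as log2 CPM with TMM factors over 42 libraries (left) and as log2 CPM of the library total (right), with tissue on the horizontal axis. Each line joins the libraries of 1 fetus, and open points are females. The liver has the highest mean of the tissues on the left and the lowest on the right, though single fetuses depart from this order on both sides. On the right the liver of RES fetus 1 lies far below the rest.

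Female and male fetuses were compared because the gene lies on chromosome X. In the cerebrum the 3 females stood at 7.12, 7.40 and 7.59 and the 11 males ran from 6.08 through a median of 7.31 to 7.60. In the liver the females stood at 6.45, 6.52 and 6.80 and the males ran from 6.05 through 6.83 to 7.11. In muscle the females stood at 7.46, 7.64 and 7.80 and the males ran from 6.94 through 7.68 to 8.02. Every female value lay inside the range of the males. With diet in the model, the difference of females minus males was 0.03 ± 0.23 (SE, adjusted *p* = 0.993, edgeR) in the cerebrum, -0.19 ± 0.18 (adjusted *p* = 0.459) in the liver and -0.13 ± 0.12 (adjusted *p* = 0.660) in muscle. Without fetus 54 the muscle difference was -0.17 ± 0.076 (unadjusted *p* = 0.0451, adjusted *p* = 0.478). In these comparisons 0.0066%, 0.00739% and 0.0134% of genes were called, and 4.09%, 22.3% and 10% had an unadjusted *p* under 0.05. With 3 females, differences of the size of these SEs could not be detected.

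The remaining genes of the cold shock group, which hold a cold shock domain or are close to RBM3 in their RNA recognition motif, are given beside it. Of 12 genes in the list, 7 had an identifier, *RBM3* among them. In muscle 0 of the other 6 were called between diets, beside 0% of all genes, and 0 of them had an unadjusted *p* under 0.05, beside 9.91% of all genes. Since *RBM3* was selected on its muscle difference, nothing is read from its place among them. *YBX1*, which packages mRNA, differed by 0.12 ± 0.093 (SE), CON lying between 8.69 and 8.91 and RES between 8.54 and 9.28. *CARHSP1*, a calcium-regulated cold shock protein, differed by 0.13 ± 0.13, and *RBMX2*, a spliceosome component, by 0.06 ± 0.12. *YBX3* and *LIN28B*, the latter a repressor of let-7 maturation, were at -0.0043 ± 0.16 and -0.00071 ± 0.24. *YBX2*, best known from germ cells, was at -0.33 ± 0.29.

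In the liver, *RBM3* was not alone in a low *p* before adjustment. There 3 of the 7 had an unadjusted *p* under 0.05, all with estimates above 0, beside 24.1% of all genes, and 0 passed the adjustment. *YBX2* ran from 0.14 to 0.84 in CON and from 0.30 to 2.44 in RES, a low level, with a difference of 1.0 ± 0.30 (SE, unadjusted *p* = 0.00427, adjusted *p* = 0.184, edgeR). *CARHSP1* ran from 6.41 to 7.12 in CON and from 6.26 to 7.71 in RES, with a difference of 0.51 ± 0.16 (unadjusted *p* = 0.00721, adjusted *p* = 0.184). *RBMX2* was at 0.72 ± 0.35, *YBX1* at -0.34 ± 0.24, *YBX3* at -0.23 ± 0.18 and *LIN28B* at -0.40 ± 0.36. The median of the list was 0.38, which is the value of *RBM3* itself, against -0.03 over all genes. In the cerebrum none of the 7 had an unadjusted *p* under 0.05, beside 2.55% of all genes, 3 estimates were higher and 4 lower, where 44.9% of all genes were higher, and the list median of -0.03 equalled that of all genes.

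Between tissues, 6 of the 7 were called lower in the cerebrum than in the liver and none higher, beside 83.6% of all genes called in either direction. *YBX1* was the exception at -0.07 ± 0.17. *YBX3*, at -2.38 ± 0.19 (SE), and *YBX2*, at -1.42 ± 0.26, differed more than *RBM3* did. Against muscle, 3 were higher in the cerebrum and 3, *RBM3* among them, were lower, beside 68.1% of all genes called. These counts are on the TMM scale, and none is given under another scaling. *RBM3* itself changed direction for cerebrum against liver without TMM factors and kept it for cerebrum against muscle.

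**Figure D5:**
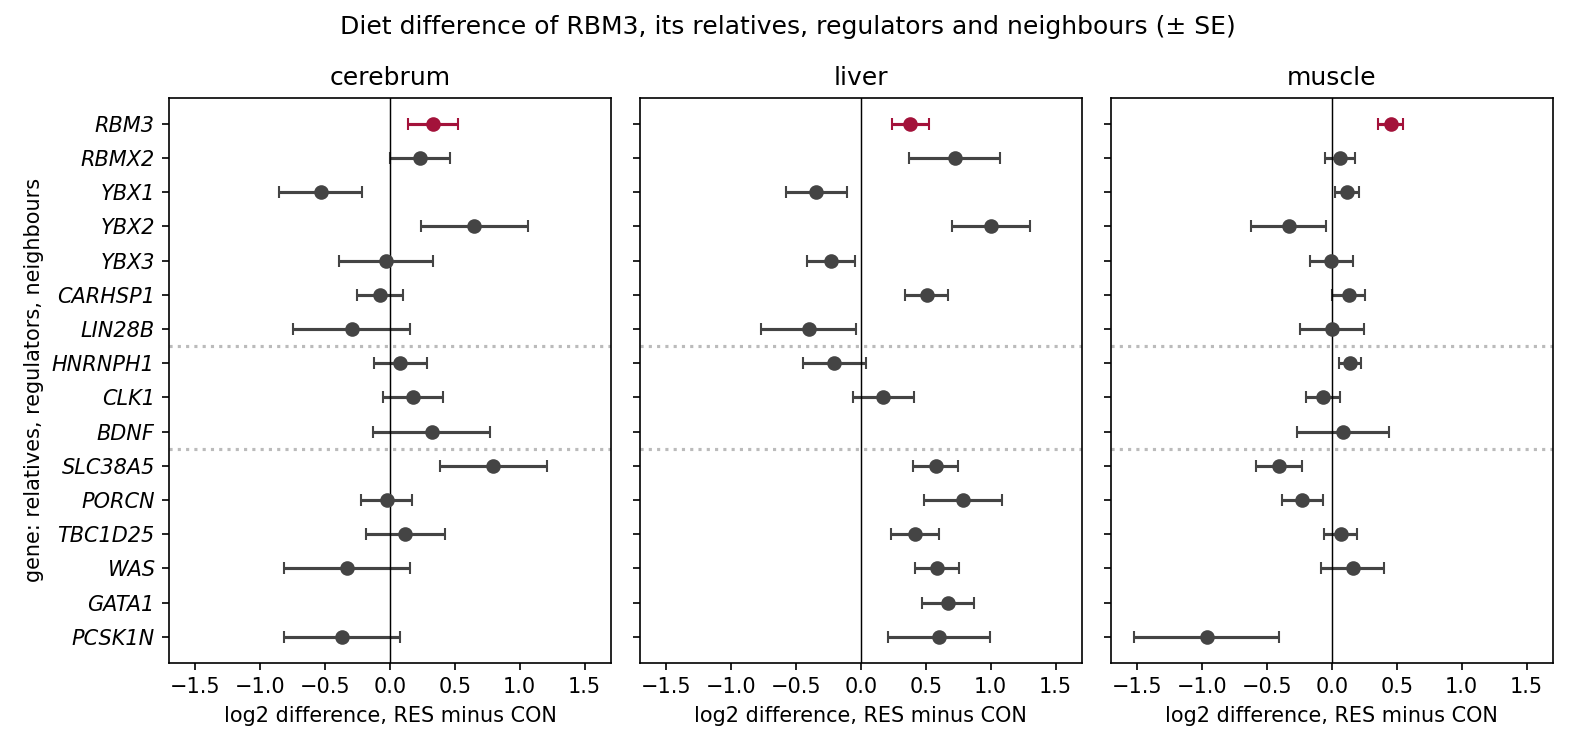
Diet difference (horizontal axis, log2, RES minus CON, ± SE from edgeR's fit) of *RBM3* (red), other cold shock genes, regulators of *RBM3* and its neighbours on chromosome X (rows, in this order, separated by dotted lines) in 3 tissues. Genes removed as too weakly expressed have no point. The muscle value of *RBM3*, 0.45, is the one it was selected on, and its error bar there is not read as a test. In the liver *YBX2* has the largest estimate of the cold shock genes, at 1.0, and *RBM3* lies at 0.38.

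Of 8 genes known to act on *RBM3*, 3 had an identifier. *HNRNPH1* encodes a splicing factor that controls a poison exon of *RBM3* with temperature. Its difference in muscle was 0.14 ± 0.086 (SE, unadjusted *p* = 0.126, edgeR), with CON between 9.96 and 10.24 and RES between 9.98 and 10.55. It was at 0.08 ± 0.20 in the cerebrum and -0.20 ± 0.24 in the liver. *CLK1* encodes a kinase of splicing factors whose activity depends on temperature. It was at -0.07 ± 0.13 in muscle, 0.18 ± 0.23 in the cerebrum and 0.17 ± 0.23 in the liver. *BDNF*, the neurotrophin whose receptor lies upstream of *RBM3* in neurons, was at 0.32 ± 0.45 in the cerebrum and 0.09 ± 0.36 in muscle and did not pass the filter in the liver. None of the 3 was called, where 0% of all genes were, or had an unadjusted *p* under 0.05, where 2.55% (cerebrum), 24.1% (liver) and 9.91% (muscle) of all genes had one. None of the 6 listed mRNA targets of RBM3 had an identifier.

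Genes that answer heat were read beside it. Of 16 chaperone genes and their regulators 7 had an identifier, and 0 were called between diets in any tissue, where 0% of all genes were. *HSPA1A*, the inducible HSP70, has a near-identical copy, so its counts are uncertain. Its estimates were -1.93 ± 0.47 (SE, unadjusted *p* = 0.000794, adjusted *p* = 0.999, edgeR) in the cerebrum and -0.92 ± 0.27 (unadjusted *p* = 0.00397, adjusted *p* = 0.457) in muscle. In muscle CON ran from 5.26 to 7.48 and RES from 5.32 to 6.13. In the liver 3 of the 7 were under an unadjusted 0.05, beside 24.1% of all genes, all with estimates below 0, and *DNAJA1*, an HSP70 co-chaperone, was at -1.32 ± 0.34. The 7 chaperones had a median of -0.10 in muscle, where 4 estimates were lower in RES. In the liver the median was -0.54 with 6 lower, and in the cerebrum -0.26 with 5 lower, against -0.03 over all genes in each. The 4 hypoxia genes with an identifier had a median of -0.03 in muscle, where none had an unadjusted *p* under 0.05, and of -0.40 in the liver, where *PGK1* at -0.70 ± 0.24 and *HIF1A* at -0.95 ± 0.33 had one. The medians of all genes were -0.01 in muscle and -0.03 in the liver, where 24.1% of all genes had such a *p*. The 3 immediate early genes had no unadjusted *p* under 0.05 in any tissue, and with so few members nothing is read from this beside the 2.55%, 24.1% and 9.91% of all genes that had one in the cerebrum, liver and muscle.

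Other cell types varied between the muscle samples of both diets, and fewer cells of a type and less RNA per cell cannot be told apart in such samples. All 8 muscle markers had higher estimates in RES muscle, where 48.1% of all genes did, none with an unadjusted *p* under 0.05, and their sum was 5551 ± 1641 CPM in CON and 7086 ± 4369 in RES (SD, *n* = 7 each), led by *MYH3*. All 4 epidermis markers had higher estimates in RES, with median sums of 28.1 and 57.9, 1 RES library at 309 and *KRT15* the most abundant. The 7 neuron markers summed to 632 ± 1533 in CON and 179 ± 308 in RES, led by *STMN2*, with medians of 46.7 and 56.0. The 6 tested neuron markers all had lower estimates in RES, with a median of -1.33 against -0.01 over all genes. None had an unadjusted *p* under 0.05. The 2 endothelium markers summed to 118 ± 10.6 and 100 ± 11.6, and *TEK* had an estimate of -0.35 ± 0.089 (unadjusted *p* = 0.00159, adjusted *p* = 0.457, edgeR). The 4 proliferation genes had higher estimates in RES, 2 of them with an unadjusted *p* under 0.05, beside 9.91% of all genes, *MCM3* at 0.29 ± 0.096 and *PCNA* at 0.17 ± 0.073, and sums of 842 ± 94.1 and 918 ± 91.7. Schwann cell markers summed to 170 ± 47.6 and 194 ± 99.0, cartilage markers to 110 ± 15.9 and 116 ± 71.8, erythroid markers to 69.1 ± 23.7 and 85.1 ± 36.3, and leukocyte markers to 82.0 ± 13.4 and 76.0 ± 8.20. Cerebrum markers in muscle had median sums of 6.95 and 9.52, with 1 CON library at 212. The 2 tested had lower estimates in RES, with a median of -1.15 and no unadjusted *p* under 0.05. Liver markers summed to 17.3 ± 12.3 and 20.6 ± 22.1. None of these defining markers with an identifier was at 3 counts or fewer throughout muscle. Their part in the values of *RBM3* was not tested.

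In the cerebrum, the marker lists had estimates in both directions. The 5 tested liver markers, 5 muscle markers, 3 epidermis markers and 4 erythroid markers all had estimates above 0, as had 44.9% of all genes, with an unadjusted *p* under 0.05 for 3, 4, 3 and 4 of them, beside 2.55% of all genes, and no call after adjustment by edgeR. Liver marker sums were 310 ± 444 CPM in CON and 1334 ± 2184 in RES, of which *TTR* alone made up 297 and 1269. The RES mean rests largely on the 1 library at 6094 CPM, and the medians were 63.2 and 253. *TTR* is also a major transcript of the choroid plexus of the brain. The 2 tested endothelium markers and the 2 tested leukocyte markers also had estimates above 0. Their medians were 0.36 and 0.80, and none had an unadjusted *p* under 0.05 by edgeR. The 2 tested Schwann cell markers and the 2 tested cartilage markers each had 1 estimate on either side of 0. All 7 neuron markers had estimates below 0, with a median of -0.39 against -0.03 over all genes, and so had 7 of 8 cerebrum markers, with a median of -0.40, none of them with an unadjusted *p* under 0.05. The cerebrum markers summed to 839 ± 310 in CON and 615 ± 194 in RES. Without RES fetus 1, the *RBM3* difference in the cerebrum was 0.31 ± 0.20 (SE), and in the liver 0.40 ± 0.15. In the liver, the direction of the marker lists depended on the scaling. Liver markers summed in plain CPM to 58371 ± 23131 in CON and 43066 ± 19946 in RES, led by *AFP*, while on the TMM scale 4 of 6 had higher estimates in RES, with a median of 0.11, and 1, *VTN*, had an unadjusted *p* under 0.05. Erythroid markers there summed in plain CPM to 8206 ± 1580 in CON and 7580 ± 3353 in RES, with medians of 8024 and 8210, while on the TMM scale 4 of 5 had higher estimates in RES, with a median of 0.16, and 2, *GATA1* and *KLF1*, had an unadjusted *p* under 0.05, beside 24.1% of all genes. The part of these lists in the *RBM3* values was not tested either.

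The neighbours of *RBM3* on chromosome X were read in the same fits. They are the 3 nearest genes on either side whose symbol could be paired with the table, with other genes lying between them in the RefSeq order. In muscle *GATA1* did not pass the filter and 1 of the other 5 had an unadjusted *p* under 0.05, beside 9.91% of all genes. *TBC1D25*, on one side of *RBM3* and encoding a GTPase-activating protein of autophagy, was at 0.07 ± 0.13 (SE), and *PORCN*, which acylates Wnt ligands, at -0.23 ± 0.16. *SLC38A5*, a glutamine transporter, was at -0.41 ± 0.18 (unadjusted *p* = 0.0360, adjusted *p* = 0.494, edgeR), *PCSK1N*, the precursor of a prohormone convertase inhibitor, at -0.96 ± 0.56 and *WAS*, an actin regulator of blood cells, at 0.16 ± 0.24. In the liver all 6 estimates were higher in RES, as were 47.9% of all genes, 5 with an unadjusted *p* under 0.05, beside 24.1% of all genes, and 0 after adjustment. *WAS* at 0.59 ± 0.17, *SLC38A5* at 0.58 ± 0.17 and *GATA1*, the erythroid transcription factor, at 0.67 ± 0.20 were 3 of these, and *PORCN* stood at 0.79 ± 0.30 and *TBC1D25* at 0.42 ± 0.19. In the cerebrum the 5 tested neighbours ran from -0.37 for *PCSK1N* to 0.80 for *SLC38A5*, none with an unadjusted *p* under 0.05.

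The genes most like *RBM3* within a tissue were mostly without a symbol. Likeness was Pearson's *r* of log2 CPM over the 14 libraries of the tissue. In the cerebrum ENSBTAG00000019949 and ENSBTAG00000010270 led with *r* of 0.926 and 0.923, followed by *ANAPC4*, a subunit of the anaphase-promoting complex, at 0.868. In the liver the 5 leading genes, none with a symbol, had *r* between 0.861 and 0.881, and in muscle *NELFCD*, a subunit of the negative elongation factor, led at 0.910. The muscle and pooled values hold the diet difference on which *RBM3* was selected. Over the 42 libraries with tissue means taken out, *CCDC62*, a coiled-coil protein, led at 0.759, and a histone gene labelled *H4*, which has many near-identical copies and is therefore uncertain, reached 0.708. With values centred within diets *NELFCD* had 0.820 and rank 27 and *H4* rank 227, and of the leading 5 only 3 in the cerebrum and 1 each in the liver, muscle and the pooled libraries stayed among the leading 5. Fetus 54 weighed on these values too. Without it *ANAPC4* fell to 0.687 and rank 62 in the cerebrum, while the leading pair there kept *r* of 0.828 and 0.848, and *NELFCD* had 0.873 and rank 12. Of the leading 5, only 2 in the cerebrum and 1 each in the liver, muscle and the pooled libraries were also among the leading 5 without fetus 54. The levels of *ANAPC4* in fetus 54 were the lowest of CON in the cerebrum at 6.12 and the liver at 5.32, but 6.34 in muscle lay near the top of CON.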

How the data were processed

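Libraries were strand-specific, with paired 50-bp reads from an Illumina HiSeq. The authors checked reads with FastQC 0.11.8, mapped them with STAR 2.7.3a to ARS-UCD1.2 with the Ensembl annotation of release 100 and deposited raw read counts per gene from the GeneCounts option. The strand column used is not given in the sources used here. Library totals were 4145093 to 12741299 counts, which set the precision of single values, and counting error is only part of the spread between fetuses.

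Symbols came from the supplementary tables of the study and paired 5130 of 22664 genes. In each tissue, a gene was dropped where 80% or more of the libraries had a CPM under 1. Diet and sex were fitted together with edgeR 4.0.16 (TMM, quasi-likelihood test, R 4.3.3), and tissues over 42 libraries with sex and diet, with Benjamini-Hochberg adjustment over all genes tested and calls at 0.05. The SE is the log2 difference divided by the root of F. DESeq2 1.42.0, other scalings, filters and covariates, and leaving out each fetus were the alternatives. Correlations used 100000 permutations over all fetuses compared, not within diets (Python 3.11.15, scipy 1.17.1). The fits were tested on simulated data with 200 changed genes. For diet, a log2 change of 1 was recovered for 8.5% (cerebrum), 33.5% (liver) and 76.5% (muscle) of these genes. With a log2 change of 2 these shares were 84%, 85.5% and 94%. For cerebrum against muscle, 77.5% were recovered at a log2 change of 1. The lack of diet calls by edgeR therefore does not exclude changes of this size, above all outside muscle.

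The numbers in the titles pair the tissues of a fetus, since each number is 1 animal. Deviations from diet means correlated between tissues of the same fetus by a mean of 0.0768, 0.0571 and 0.0979 over genes for cerebrum and liver, cerebrum and muscle, and liver and muscle. *RBM3*, the gene lists and the tests were chosen with earlier results of these data known. Every listed member of the cold shock and regulator lists with an identifier was named, of other lists at most 2 with the lowest *p* (the most abundant marker of a list was named outside this rule, after its values were seen), and the 5 genes most like *RBM3* where they had a symbol or led their list. *CIRBP* had no identifier, so its planned correlations with *RBM3* are not analysed here.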

Additional observations from a re-analysis of the deposited data

Results flagged for a closer look

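Outside muscle, whose values chose the gene, the lowest value stood apart in 1 group of 7 libraries, the CON cerebrum, for fetus 54. Its *RBM3* level there of 6.08 (log2 CPM, TMM scale) had a gap to the next library of 0.649 of the group's whole range. This was above Dixon's 95% critical value for 7 samples. The flag is for the TMM scale only. In plain CPM fetus 54 stood at 72.7, the next library, fetus 23, at 103 and the highest CON cerebrum at 158. There fetus 23 lay nearer to fetus 54 than to the highest, so the gap was the smaller part of the range. In the CON liver fetus 54 was lowest with a gap of 0.330, under the critical value. In CON muscle its level of 6.94 had a gap of 0.574, which is given without a test. Chance flags about 1 in 20 groups, and the 3 tissues of a fetus are not independent. The CON muscle values are among those on which the gene was selected, and a low CON library widens that difference (0.45 with fetus 54 and 0.37 without), so the muscle value is a description. No cause was tested.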

How the results depend on the processing

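Under the alternatives run, the cerebrum against muscle difference kept its direction and its call, and diet had 0 calls in the cerebrum. The muscle diet difference, on which the gene was selected, ran from 0.37 to 0.52 and is a description. By exact permutation of this gene alone, without sex, the diet difference had *p* under 0.05 in the cerebrum (0.39) and liver (0.37). In edgeR's fit with sex the unadjusted *p* was 0.10 and 0.0176, and the adjusted *p* 0.999 and 0.184. Both tissues came from the fetuses whose muscle values chose the gene, so these *p*-values may carry that selection. For diet DESeq2 called 78 genes in the liver and 14 in muscle, where edgeR called 0. For sex, DESeq2, no filter, a stricter filter and library totals gave 6, 7, 0 and 2 calls in the cerebrum, where 1 was called, DESeq2 and the stricter filter gave 3 and 0 in the liver, and 10 and 0 in muscle. Chosen after seeing the data, library totals without TMM factors put cerebrum against liver at 0.55 and liver against muscle at -0.93, and without mitochondrial genes at 0.32 and -0.67. On library totals the liver sex difference became 0.23 and the liver diet difference 0.08. Depth limits weakly expressed genes such as *YBX2* and *BDNF* more than *RBM3*.

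Correlations between tissues weakened to 0.233 for cerebrum and liver and 0.106 for liver and muscle without TMM factors, and to 0.533 for cerebrum and liver without the mitochondrial genes. Centred within diets and without fetus 54 they were 0.388, 0.448 and 0.560. Leaving out 1 fetus at a time, the sex difference ran from -0.030 (without 70) to 0.070 (without 23) in the cerebrum, -0.27 (without 68) to -0.10 (without 70) in the liver and -0.23 (without 68) to -0.066 (without 55) in muscle, the sex calls from 0 to 2 in the cerebrum, 0 to 1 in the liver and 0 to 2 in muscle, and the diet difference from 0.22 to 0.44 in the cerebrum, 0.32 to 0.44 in the liver and 0.37 to 0.49 in muscle, lowest without fetus 54 in each. With the fetus as a replicate block the tissue differences were -0.51, -0.38 and 0.13 (adjusted *p* = 2.98e-07, 4.53e-05 and 0.126, edgeR), and the block changed no call. For diet and sex no paired analysis was possible because each fetus had 1 diet and 1 sex. The correlations with *CIRBP* were not run.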
